A study of Mus musculus with 8 samples.

Results

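Peaks of open chromatin that lie in dense clusters were examined in 2 sorted populations of mouse blood progenitors. A peak was a member when it lay on chromosomes 1 to 19, was narrower than 1500 bp and had 20 or more other peaks of its chromosome with a start within 50 kb of its own. This rule used peak positions alone and no counts. It chose 12085 of 134473 peaks (8.99%), and members whose starts lay within 50 kb of each other were joined into 866 clusters. Another 352 peaks had as many neighbours but were 1500 bp or wider, and 68 such peaks lay on the sex chromosomes, and these are not members.

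The cells were MPP2, multipotent progenitors of the bone marrow that are biased toward megakaryocytes and red cells, taken from adult C57BL/6 mice aged 8 to 12 weeks. Both groups came from the LSK gate, which holds early progenitors without markers of mature blood lineages and with Sca1 and Kit, lacked Flt3, carried CD150 and CD48, and were Gata1-positive. The groups, Vwf+Gata1+ and Vwf-Gata1+, therefore differed in Vwf, which encodes the von Willebrand factor of megakaryocytes and vessel walls. The sources used here do not give how Vwf and Gata1 were detected in the sort, or any allele used for it. Each group had 4 libraries of 500 cells each, made with Omni-ATAC-seq, in which the Tn5 transposase cuts open DNA and leaves sequencing adapters there. Nothing in the labels ties a replicate to an animal, and p-values here speak of the spread among libraries, part of which may be technical.

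Open chromatin marks promoters, enhancers and insulators, where bound proteins keep nucleosomes away. Such elements are not spread evenly: they crowd around active genes, in gene-rich stretches of the genome and in groups of enhancers that serve one cell type. In blood progenitors many of these elements are bound by GATA, RUNX and ETS family proteins. A dense cluster may thus hold the promoters of several genes, the enhancers of a single gene, or repeated units of one DNA sequence. Peaks are given by their position in the mm9 build. Genes at the mm9 positions, sequences, motifs and cell type markers were not analysed here, since no sequence or annotation of that build was used.

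The 8 libraries held from 4628997 to 7753538 counts in all peaks, and from 469223 to 818284 counts in the members. Signal is given as CPM, counts scaled to a common library total, after TMM, a method that sets libraries to a common level over most peaks. Replicate 1 of both groups stood apart from the other libraries in the members, with the highest share of counts there. Differences are given as log2 fold changes, Vwf+Gata1+ over Vwf-Gata1+, ± standard error.

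Clusters were of very different size. The median cluster had 10 members and spanned 49.8 kb. A single member, with no other member's start within 50 kb of its own, formed 85 of the clusters, and 183 clusters had 2 to 4 members. Another 359 had 5 to 19 members, 218 had 20 to 49, and 21 had 50 or more. The 239 clusters of 20 or more members held 7465 members, 61.8% of them. All clusters together spanned 53.8 Mb, 2.23% of the stretch of the autosomes covered by peaks, and their members made up 6.11 of the 72.2 Mb of peak sequence.

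Members were not shared evenly among the chromosomes. They were 15.7% of the narrow peaks of chromosome 8, 15.4% of those of chromosome 11, 14.1% of those of chromosome 17 and 13.2% of those of chromosome 15. On chromosome 16 they were 4.65%, and on chromosome 18 they were 5.41%. Chromosome 11 held the most, with 1396 members in 105 clusters. It was also the chromosome with the most peaks over its length, 79.3 per Mb, against 43.5 per Mb on chromosome 3, the sparsest.

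Within a cluster the members lay close together but mostly apart from each other. The median gap between the end of a member and the start of the next was 2396 bp, against 5892 bp after other narrow autosomal peaks. In 11.9% of the 10370 consecutive pairs the gap was under 200 bp, about the DNA of a nucleosome with its linker, against 7.02% after other peaks. The shortest gap was 36 bp. The rule chose members by how near other starts lay, so it favours short gaps, and neither contrast with other peaks is a separate result. Whether such pairs are several peaks drawn on 1 open region was not tested. The members spanned a median of 406 bp, and the other narrow autosomal peaks a median of 381 bp.

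Members had more signal than other peaks. Their median mean signal was 4.41 CPM, against 2.53 CPM for the 114710 other narrow autosomal peaks and 1.27 CPM for the 2514 peaks with no other peak within 50 kb. Per kb of peak the medians were 10.7 CPM for members, 6.28 CPM for other peaks and 4.26 CPM for the lone peaks. The rise was stepwise over density: the median was 1.74 CPM with 1 to 4 other peaks, 2.25 CPM with 5 to 9, 3.09 CPM with 10 to 19, 4.37 CPM with 20 to 29 and 9.72 CPM with 30 or more. Each step was upward in each of the 8 libraries, as the plot of median signal by density shows. Peaks are called from the same reads that are then counted, so density and signal are not independent measures, and no test is given.

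**Figure D1:**
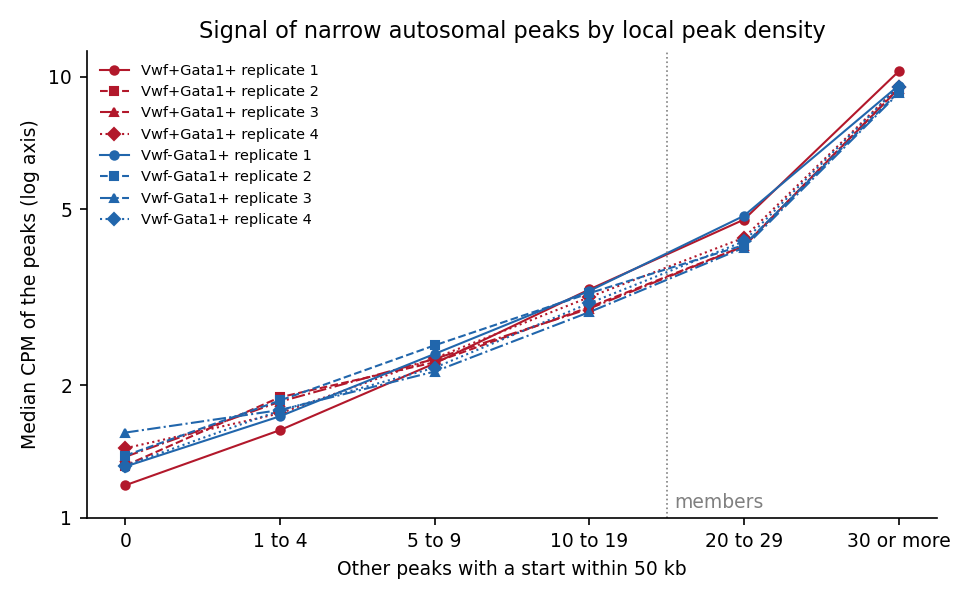
Median CPM (log axis) of narrow autosomal peaks in 6 classes of the number of other peaks within 50 kb, with 1 line per library; red lines are Vwf+Gata1+, blue lines are Vwf-Gata1+, and the classes right of the dotted line are the members. Every library rises from class to class, from between 1.19 and 1.56 CPM for lone peaks to between 9.17 and 10.3 CPM in the densest class.

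The difference in signal held within classes of width. Among peaks of 200 to 302 bp the median member had 1.57 times the signal of the median other peak, among peaks of 303 to 524 bp 1.63 times, and among peaks of 525 to 1499 bp 1.51 times. Over single libraries these ratios ran from 1.33 to 1.88, from 1.54 to 1.78 and from 1.44 to 1.56. At the edge of the rule the change was gradual. The 3108 peaks with exactly 20 other peaks had a median of 4.23 CPM, and the 4095 peaks with exactly 19, which are not members, had 3.74 CPM.

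A few strong members held much of the signal of a cluster's members. Peaks of 1500 bp or more and other non-members within the span are left out of these shares. In clusters of 20 or more members the strongest peak held a median of 17.2% of the signal, with a range from 2.56% to 49.3%. A median of 5 peaks, 17.2% of a cluster's members, held 50% of its signal. The median strongest peak had 40.9 CPM, against 4.69 CPM for the median member of these clusters. The following 3 clusters were chosen after their values were seen, because the planned ranking by this share was met by all single-member clusters. On chromosome 4, 149362834 to 149487326, the strongest of 20 members held 49.3%, and on chromosome 10 the strongest of 20 members at 98613934 to 98732162 held 41.1%, and the strongest of 23 members at 82523024 to 82606144 held 38.7%.

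The share of each library's counts that fell in members was 10.6, 9.95, 10.1 and 10.2% in replicates 1 to 4 of Vwf+Gata1+, and 10.6, 9.95, 10.1 and 10.1% in those of Vwf-Gata1+. The 2 groups overlapped, and in each of them replicate 1 was highest, followed by replicates 4, 3 and 2. The means were 10.2% ± 0.253 and 10.2% ± 0.275 (SD, n = 4), a difference of 0.0110 percentage points (2-sided exact permutation test, p = 0.914, adjusted p = 0.971 over 5 measures). The smallest p that 4 libraries against 4 allow is 0.0286. Counts per kb in members over those in other narrow autosomal peaks were 1.41 ± 0.0339 and 1.40 ± 0.0370 (SD, n = 4), which also overlapped (exact permutation p = 0.686, adjusted p = 0.971). The sign of both differences changed when single libraries were left out.

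The strongest peaks of clusters of 20 or more members took 14.8, 16.9, 16.5 and 16.0% of the counts of those clusters in replicates 1 to 4 of Vwf+Gata1+, and 14.7, 16.4, 17.0 and 16.1% in those of Vwf-Gata1+. The strongest peak was taken in each library on its own. Replicate 1 was lowest in both groups, and these libraries also had the most counts in all peaks, 7753538 and 7670844. Whether depth moved this share was not tested. The group means were 16.1% ± 0.917 and 16.1% ± 0.970 (SD, n = 4, exact permutation p = 0.971, adjusted p = 0.971). The other shares compared in the same way were those of peaks of 1500 bp or more, at 20.9% ± 0.274 and 20.6% ± 0.627 (exact permutation p = 0.429), and of lone peaks, at 0.690% ± 0.0408 and 0.696% ± 0.0438 (exact permutation p = 0.743). Their adjusted p was 0.971 each.

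Whether clusters opened or closed between the populations was asked on the sum of each cluster's member counts. These sums leave out 2027 other peaks within the cluster spans, 334 of them 1500 bp or wider. The sums were fitted with edgeR's quasi-likelihood test together with all other peaks, summed in windows of 100 kb, so that p-values were adjusted over 17265 regions. In bulk libraries, more cells with an open site and a site that is open more often in each cell cannot be told apart. No cluster passed. Of 846 tested clusters 0 had an adjusted p under 0.05, and among all regions the count was also 0 (0%). At an unadjusted p under 0.05 there were 53 clusters, 6.26% of those tested, against 7.22% of all regions, with 30 clusters higher and 23 lower in Vwf+Gata1+, and 23 higher and 33 lower with scaling by total count. DESeq2, limma-voom and a fit with every peak within the cluster spans also called 0 clusters. With the replicate number as a block, which compares same-numbered libraries, 10 clusters passed.

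The differences between populations were small, and in the large clusters they were tightly bounded. The median size of the log2 fold change was 0.06 over clusters and 0.08 over all regions. The 95% interval of the difference lay within 1.25-fold in either direction in 599 of 846 clusters (70.8%), and within 1.5-fold in 765 (90.4%). In clusters of 20 or more members it lay within 1.25-fold in 238 of 239, and within 1.1-fold in 110. In clusters of a single member it lay within 1.25-fold in only 3 of 66. More clusters were higher than lower in Vwf+Gata1+, 479 against 367, but with scaling by total count the split was 402 against 443.

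Precision rose with the number of members, and so did total signal. From the smallest to the largest class of cluster the median signal was 3.71, 17.2, 79.7, 212 and 596 CPM. The parts of member number and of signal in precision were not tested. The standard error of a cluster's log2 fold change had a median of 0.26 in clusters of 1 member, 0.13 in those of 2 to 4, 0.07 in those of 5 to 19, 0.05 in those of 20 to 49 and 0.04 in those of 50 or more. The median coefficient of variation within a group fell over the same classes from 21.5% through 12.1%, 6.26% and 4.37% to 3.10%. A cluster of 50 or more members thus repeated within a few percent between libraries of 500 cells. One cluster of that size, on chromosome 8, did not, and it is described further on.

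**Figure D2:**
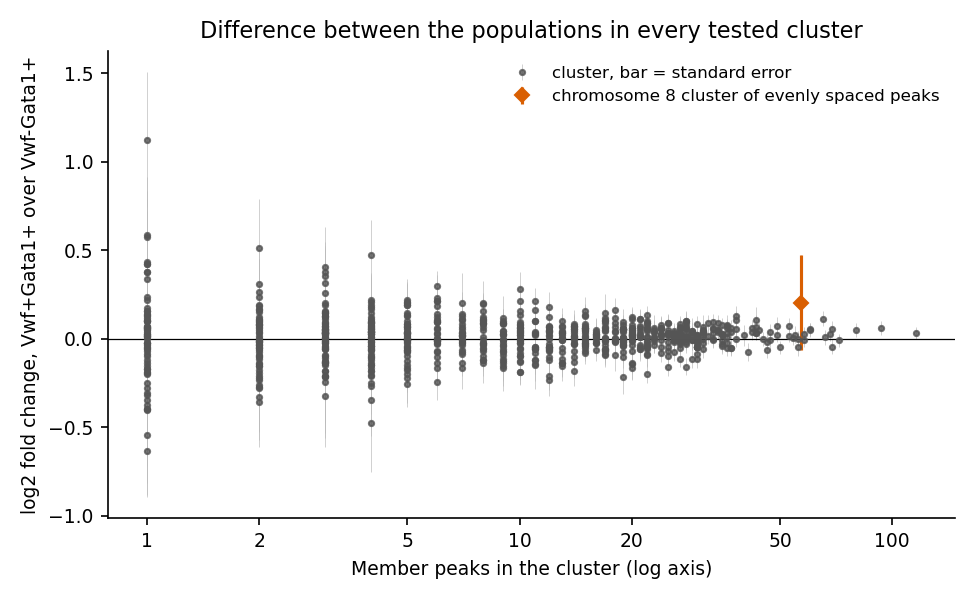
log2 fold change between the populations (vertical axis) against the number of members (log axis) for the 846 tested clusters; bars are standard errors, and the orange diamond is the chromosome 8 cluster of evenly spaced peaks. Points close in on 0 as clusters grow, and the diamond, at 0.20 ± 0.27, keeps a wide bar in spite of its 57 members.

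The largest cluster, on chromosome 10 from 80590083 to 81063960, had 116 members over 474 kb. Its signal was 1595, 1627, 1679 and 1658 CPM in replicates 1 to 4 of Vwf+Gata1+, and 1567, 1562, 1659 and 1623 CPM in those of Vwf-Gata1+. The groups overlapped, with the lowest 2 libraries from Vwf-Gata1+, and the log2 fold change was 0.03 ± 0.04 (95% interval -0.04 to 0.11). Its strongest peak held 5.47% of the signal, and 17 peaks were needed for 50% of it.

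The next largest, on chromosome 8 from 122686259 to 123107335, had 93 members and 1147 ± 38.2 CPM in Vwf+Gata1+ against 1100 ± 47.6 CPM in Vwf-Gata1+ (SD, n = 4). That was a log2 fold change of 0.06 ± 0.04, and the groups overlapped. On chromosome 4 from 134439245 to 134844291, 80 members gave 776 ± 33.1 against 750 ± 14.6 CPM, a log2 fold change of 0.05 ± 0.04. On chromosome 17 from 34168392 to 34486712, 72 members gave 815 ± 17.9 against 821 ± 11.4 CPM, with a log2 fold change of -0.01 ± 0.04. The libraries of the groups overlapped in all 3.

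The other 4 of the 8 largest were on chromosome 15 from 100915047 to 101219320 (69 members, log2 fold change -0.04 ± 0.04), chromosome 17 from 45643592 to 45895252 (69 members, 0.06 ± 0.05), chromosome 11 from 98569834 to 98853381 (68 members, 0.02 ± 0.04) and chromosome 17 from 29011766 to 29293889 (66 members, 0.01 ± 0.04). In all 8 of these clusters the 95% interval held 0 and lay within 1.25-fold. Their spans ran from 252 to 474 kb and their signal per kb of peak from 14.6 CPM in the last of them to 26.5 CPM in the chromosome 10 cluster.

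**Figure D3:**
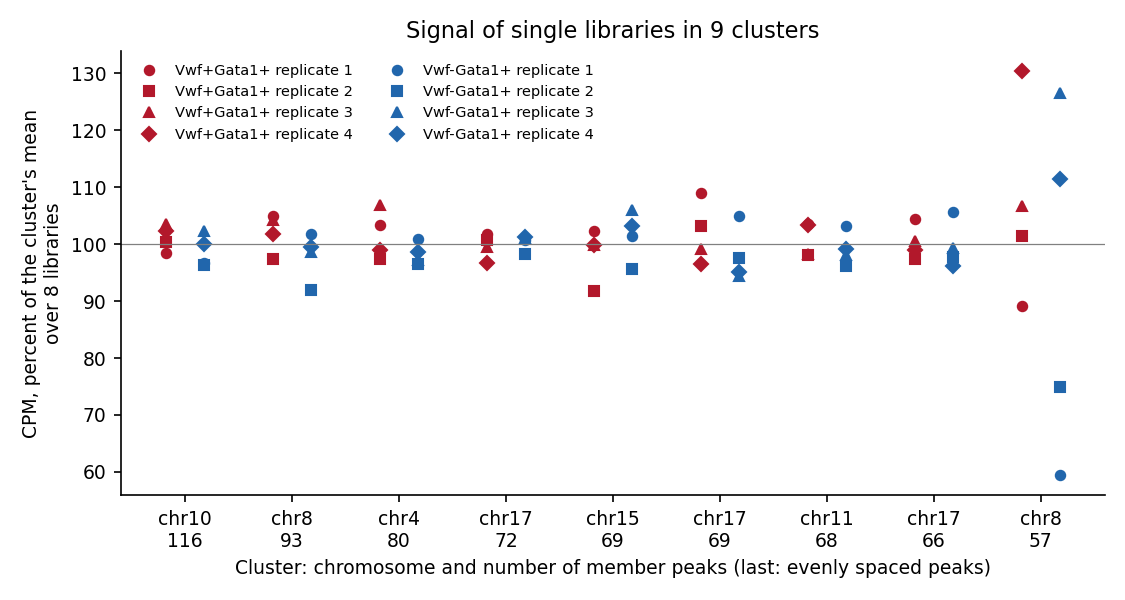
Signal of each library in the 8 clusters with the most members and in the evenly spaced chromosome 8 cluster (last column), as a percent of the cluster's mean over the 8 libraries; red is Vwf+Gata1+, blue is Vwf-Gata1+, and the symbol gives the replicate. The groups overlap in every column, and only the last column spreads widely, from 904 to 1985 CPM.

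The clusters with the lowest p are named as the top of a ranking in which none passed in the fit of the group alone. Among those higher in Vwf+Gata1+ the lowest p was on chromosome 6 from 88732929 to 88811366, a cluster of 6 members. Its signal was 52.5, 58.2, 58.4 and 54.3 CPM in replicates 1 to 4 of Vwf+Gata1+ against 48.5, 48.0, 44.9 and 39.4 CPM in those of Vwf-Gata1+. The groups did not overlap, all 6 members had a positive log2 fold change, and the cluster's value was 0.30 ± 0.08 (edgeR adjusted p = 0.331). On chromosome 5 from 3483185 to 3509783, all 8 members were likewise positive, with 109 ± 4.58 against 94.5 ± 5.06 CPM (log2 fold change 0.20 ± 0.06, edgeR adjusted p = 0.373). With the replicate number as a block both clusters passed (edgeR adjusted p = 0.0104 and 0.0154).

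The other 4 of this side were on chromosome 5 from 35286097 to 35303081 (0.23 ± 0.07), on chromosome 18 at 38363349 to 38363716, a single peak of 2.57 ± 1.39 against 1.28 ± 0.522 CPM (1.12 ± 0.38), on chromosome 17 from 8181703 to 8233799 (0.22 ± 0.07) and on chromosome 18 from 56893505 to 56905094 (0.38 ± 0.13). In the first and the last of these 4 a single peak held 72.9% and 75.7% of the signal, so their sums were nearly the values of 1 peak. The single peak's value was 0.72 without replicate 4 of Vwf+Gata1+, and the value of the last was 0.24 without replicate 1 of Vwf+Gata1+. Their adjusted p ran from 0.449 to 0.507 (edgeR). With the replicate number as a block, the clusters that start at 8181703 and 56893505 passed (edgeR adjusted p = 0.00995 and 0.0287).

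Among clusters lower in Vwf+Gata1+ the lowest p was on chromosome 14 from 51610795 to 51752403, with 22 members over 142 kb. Its signal was 99.0, 105, 104 and 105 CPM in replicates 1 to 4 of Vwf+Gata1+ against 115, 122, 122 and 114 CPM in those of Vwf-Gata1+. Every library of the first group lay below every library of the second, and 13 of its 15 tested members were negative. The log2 fold change was -0.20 ± 0.05 (edgeR adjusted p = 0.326, the lowest of all clusters). With the replicate number as a block this cluster passed (edgeR adjusted p = 0.0137).

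On chromosome 1 from 133991796 to 134087748, 25 members gave 146 ± 3.11 against 163 ± 6.33 CPM (-0.16 ± 0.05), and on chromosome 18 from 55038306 to 55138876, 28 members gave 147 ± 7.46 against 164 ± 2.13 CPM (-0.16 ± 0.05). The groups did not overlap in either. The remaining 3 were on chromosome 3 from 78996592 to 79046601 (-0.19 ± 0.07), chromosome 13 from 55505327 to 55580914 (-0.15 ± 0.05) and chromosome 19 from 33024820 to 33053209 (-0.21 ± 0.08). The 5 adjusted p ran from 0.419 to 0.536 (edgeR). With the replicate number as a block, the clusters on chromosomes 1 and 18 passed (edgeR adjusted p = 0.0287 and 0.0289). The lower side thus held clusters of 10 to 28 members, and the higher side clusters of 1 to 11.

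Clusters were also ranked by signal per kb of peak, over both populations. The highest were a single member on chromosome 9 at 66468279 to 66469245 with 57.6 CPM per kb, a single member on chromosome 6 at 42299011 to 42300439 with 51.3 CPM per kb, and 4 members on chromosome 13 from 23824195 to 23849394 with 49.7 CPM per kb. The last ranged from 113 to 168 CPM over the 8 libraries, with a log2 fold change of -0.10 ± 0.13. The lowest were 3 members on chromosome 6 at 136645566 to 136646447 with 2.35 CPM per kb, a single member on chromosome 8 at 97296534 to 97296736 with 2.53 and 3 members on chromosome 15 at 63524161 to 63525417 with 2.68. At both ends the clusters had 1 to 4 members.

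Single members were tested one by one in a fit over all peaks. Of 12085 members 10278 had enough counts (85.0%), against 70.0% of other narrow autosomal peaks, and p-values were adjusted over the 97040 tested peaks. One member passed, 0.00973% of those tested, against 14 of all tested peaks (0.0144%). At an unadjusted p under 0.05, 408 members were higher in Vwf+Gata1+ (3.97%, against 3.52% of all tested peaks) and 233 were lower (2.27%, against 3.2%). For 379 members the 4 libraries of one group all lay above those of the other (3.69%, against 3.88% of all tested peaks), 202 higher and 177 lower in Vwf+Gata1+.

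Higher members thus outnumbered lower ones among those under the unadjusted threshold, at 63.7% against 52.3% over all peaks. This split moved with single libraries and with scaling: with 1 library left out it ran from 49.8% (without replicate 1 of Vwf+Gata1+) to 75.0% (without replicate 1 of Vwf-Gata1+), and it was 55.1% with scaling by total count and 70.0% with DESeq2. Over all tested members 52.0% were higher, and 48.3% with scaling by total count. No member passed with limma-voom, which gave 663 members (6.45%) at an unadjusted p under 0.05, against 6.79% of all tested peaks. Members varied slightly less than other peaks, with a median biological coefficient of variation of 0.127 against 0.135 and a median standard error of 0.21 against 0.24. Outside the members this coefficient also fell with density, from 0.153 in lone peaks to 0.131 with 10 to 19 other peaks. Signal rose over the same classes, and its part in the lower variation was not tested. The median size of the members' log2 fold change was 0.15, against 0.16.

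Members of a cluster had little direction in common. In the 389 clusters with 10 or more tested members, 4593 of 8451 members (54.3%) differed between groups in the same direction as the sum of the other members of their cluster. For other narrow peaks in windows of 100 kb with 5 or more tested peaks the share was 53.5%. In 19 of the 389 clusters at least 80% of members pointed one way, 8 of them to Vwf+Gata1+ and 11 to Vwf-Gata1+. Among the 8 was the chromosome 8 cluster of evenly spaced peaks described further on, with 53 of 57 tested members higher. No such share is given for the windows, so this count has no comparison. No more than 7 members of a cluster had an unadjusted p under 0.05, which was reached on chromosome 7 from 134200523 to 134465995 among 52 tested members. This cluster was chosen after its values were seen, and its own log2 fold change was -0.01 ± 0.04.

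The member that passed lay on chromosome 2 at 118581827 to 118582344, a peak of 518 bp with 21 other peaks around it. Its signal was 10.3, 11.8, 20.4 and 12.2 CPM in replicates 1 to 4 of Vwf+Gata1+, and 4.44, 5.54, 6.24 and 7.01 CPM in those of Vwf-Gata1+. Every Vwf+Gata1+ library lay above every Vwf-Gata1+ library, and replicate 3 stood highest. The peak rose in Vwf+Gata1+ by a log2 fold change of 1.21 ± 0.20, which is 2.31-fold (edgeR adjusted p = 0.0124). The call was lost without replicate 3 of Vwf+Gata1+ (log2 fold change 0.98, adjusted p = 0.0591), without replicate 1 of Vwf-Gata1+ (1.08, adjusted p = 0.0523) and without replicate 2 of Vwf-Gata1+ (1.19, adjusted p = 0.0608), each by edgeR. It was also lost with limma-voom, where no member passed.

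Whether single members moved against the rest of their cluster was tested as peak usage, with edgeR's test for differential usage of parts within a region. Of 742 clusters with 2 or more tested members 1 passed (0.135%), against 12 of 13540 regions (0.0886%). At an unadjusted p under 0.05 the counts were 55 clusters (7.41%) and 663 regions (4.9%). Clusters hold more tested peaks per region than windows do, and the part of this in the higher share was not tested.

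The cluster that passed was the one around the called peak, 25 members on chromosome 2 from 118500165 to 118601436 (edgeR usage adjusted p = 7.51e-05, held in each of the 8 fits that left out 1 library). The cluster as a whole did not differ, with 231 ± 10.1 against 227 ± 3.45 CPM (SD, n = 4) and a log2 fold change of 0.03 ± 0.05. The called peak took a mean of 5.89% of the cluster's signal in Vwf+Gata1+ and 2.56% in Vwf-Gata1+. Of the other 21 tested members 7 were higher and 14 lower, with a median log2 fold change of -0.05 and a range from -0.36 to 0.64. The value of 0.64 ± 0.16 belonged to the tested member just before the called peak, at 118577961 to 118578931, which did not pass (edgeR adjusted p = 0.166). With the replicate number as a block this member passed (log2 fold change 0.63, edgeR adjusted p = 0.0035). It also passed without replicate 1 of Vwf+Gata1+ (0.79, edgeR adjusted p = 0.023).

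**Figure D4:**
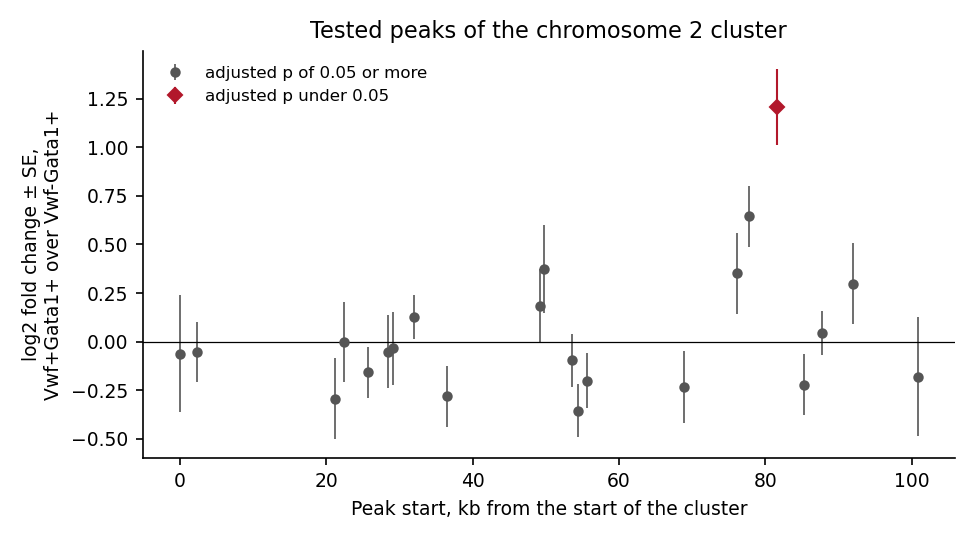
log2 fold change ± standard error of the 22 tested members of the chromosome 2 cluster against the distance of their start from the start of the cluster, in kb. The called peak (red diamond) stands at 1.21, and the other members lie between -0.36 and 0.64 on both sides of 0.

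The other 3 clusters with the lowest usage p did not pass, and each was led by a weak peak that was higher in Vwf+Gata1+. On chromosome 2 at 152611185 to 152611384, the leading peak had 4.96 ± 2.20 against 1.96 ± 0.303 CPM, in a cluster that began at 152564806 and had 12 members. On chromosome 3 at 97793480 to 97794132 it had 6.10 ± 2.52 against 2.59 ± 0.470 CPM, in a cluster of 46 members from 97719024 to 97888457. On chromosome 4 at 134687032 to 134687448 it had 9.06 ± 3.19 against 4.35 ± 1.23 CPM, in the cluster of 80 members named above. The groups did not overlap in any of the 3, and the usage adjusted p ran from 0.17 to 0.214 (edgeR). Without replicate 1 of Vwf+Gata1+, all 3 of these clusters passed, as they did with the replicate number as a block.

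The members next in line for higher signal in Vwf+Gata1+ missed the threshold. On chromosome 1 at 89522862 to 89523406 the signal was 28.1, 28.5, 34.4 and 27.7 CPM in replicates 1 to 4 of Vwf+Gata1+ against 20.4, 19.7, 21.1 and 19.8 CPM in those of Vwf-Gata1+, which did not overlap. The difference was 0.54 ± 0.11 on the log2 scale (edgeR adjusted p = 0.0539), and with scaling by total count it passed (adjusted p = 0.0438). On chromosome 19 at 7341558 to 7342310 the means were 19.1 ± 2.63 and 11.7 ± 1.01 CPM (0.68 ± 0.14, edgeR adjusted p = 0.0539). The next lay on chromosome 12 at 112659468 to 112659825 (0.84 ± 0.19) and on chromosome 14 at 26299232 to 26299980 (0.52 ± 0.12), with adjusted p of 0.107 and 0.111 (edgeR). With the replicate number as a block, each of these peaks passed.

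On the lower side the first was on chromosome 8 at 47680891 to 47681492, with 13.0, 10.9, 12.4 and 12.4 CPM in replicates 1 to 4 of Vwf+Gata1+ against 17.9, 19.2, 18.1 and 19.8 CPM in those of Vwf-Gata1+. The groups did not overlap and their spread was narrow, and the log2 fold change was -0.62 ± 0.13 (edgeR adjusted p = 0.0664). The next was on chromosome 12 at 78235001 to 78235800 (-0.81 ± 0.20, edgeR adjusted p = 0.156). The other 3, on chromosome 9 at 123930776 to 123931179 and at 58385440 to 58385973 and on chromosome 2 at 35359518 to 35360081, had log2 fold changes of -0.56, -0.56 and -0.48 and adjusted p from 0.277 to 0.306 (edgeR). With the replicate number as a block, each of the peaks on this side passed.

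The densest place of all was a cluster on chromosome 8 from 126038547 to 126168029, singled out after its values were seen. It had 57 members, 1 of which had 52 other peaks within 50 kb. Of these members 51 followed each other without a break from 126062382 to 126147990, at steps between 1000 and 2500 bp. Their starts were a median of 1703 bp apart, with quartiles of 1674 and 1729 bp, and their widths had a median of 629 bp with quartiles of 576 and 654 bp. The middle deviation of the steps from their median was 2.02% of it in this cluster, against 18.4% in the next most even of the 448 clusters of 10 or more members and a median of 64.4%.

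Signal was also even. The 51 peaks had a median of 30.3 CPM with quartiles of 27.1 and 32.9 CPM, and the strongest peak of the cluster held only 2.56% of its signal, the lowest share among clusters of 20 or more members. The 51 peaks were 0.422% of the members and held 1.36% of their counts. They made up 51 of the 197 members with 30 or more other peaks, and without them the median of that class was 6.10 CPM in place of 9.72 CPM.

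**Figure D5:**
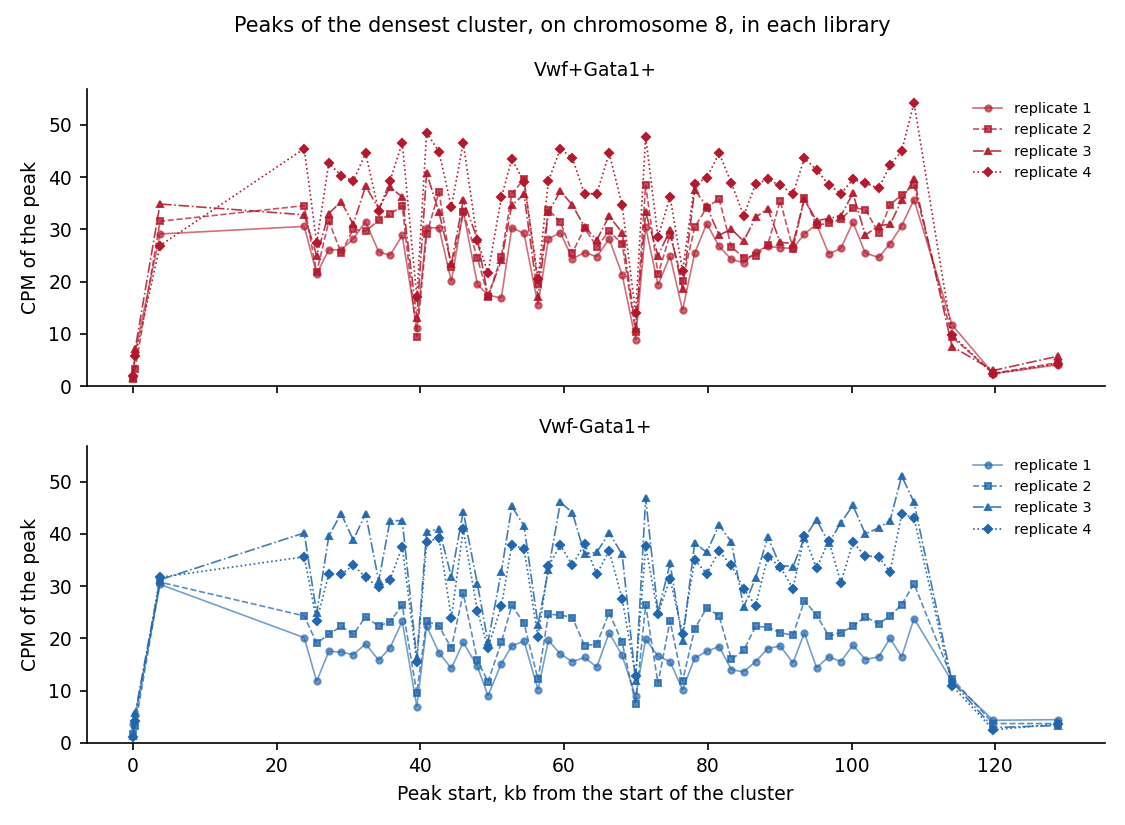
CPM of each of the 57 members of the densest cluster in each library, against the distance of its start from the start of the cluster, in kb; the upper panel shows Vwf+Gata1+, the lower panel Vwf-Gata1+, and lines join peaks of 1 library. The 51 evenly spaced peaks stay close to parallel between libraries while the level of a whole library shifts, and the 6 flanking peaks do not follow.

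These peaks moved as a block from library to library. Their summed signal was 1300, 1492, 1564 and 1934 CPM in replicates 1 to 4 of Vwf+Gata1+, and 845, 1084, 1870 and 1642 CPM in those of Vwf-Gata1+. The highest library had 2.29 times the signal of the lowest, both groups had their lowest value in replicate 1, and the groups overlapped. In 49 of the 51 peaks replicate 1 was also the lowest of the Vwf-Gata1+ libraries. The means were 1573 ± 266 and 1360 ± 477 CPM (SD, n = 4, 2-sided exact permutation p = 0.486).

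The 6 flanking members, summed, had 54.6 ± 3.95 and 56.3 ± 2.45 CPM, and their highest library had 1.18 times the signal of the lowest. The biological coefficient of variation of the whole cluster was 0.261, against no more than 0.104 in any other cluster of 10 or more members and a median of 0.0475. All 51 peaks had a positive log2 fold change, from 0.10 to 0.37 with a median of 0.23. In edgeR's fit of the group alone 0 of them had an unadjusted p under 0.05, with a median standard error of 0.27. With the replicate number as a block, the peaks that start at 126072745, 126118390 and 126125208 passed (edgeR adjusted p from 0.0304 to 0.0413). The cluster's log2 fold change was 0.20 ± 0.27, with a 95% interval from -0.45 to 0.85. Single libraries decided its size: it was 0.04 without replicate 1 of Vwf-Gata1+, 0.09 without replicate 4 of Vwf+Gata1+, 0.11 without replicate 2 of Vwf-Gata1+ and 0.39 without replicate 3 of Vwf-Gata1+.

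The direction of the densest class of members moved with this block. Of the tested members with 30 or more other peaks 69.8% were higher in Vwf+Gata1+, and 58.0% without the 51 peaks. The share of counts in members also changed sign without them, to a difference of -0.00846 percentage points (exact permutation p = 0.943). Of the 408 members higher and 233 lower at an unadjusted p under 0.05, none was among the 51, so those counts stood unchanged.

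In the mouse, 5S ribosomal RNA, the small RNA of the large ribosomal subunit made by RNA polymerase III, is encoded by tandem repeats of a unit that holds 1 gene. RefSeq's gene table of another build, GRCm38.p6, lists on chromosome 8 a run of 51 genes with starts a median of 1698 bp apart (range 1665 to 1727 bp), 48 of which it types as rRNA and 43 of which carry 5S in their symbol. The table held 3 other runs of 20 or more genes at steps between 1000 and 2500 bp, all of small nucleolar RNA genes on chromosome 7. Positions of the 2 builds were not compared, so whether the 51 peaks lie on these 51 genes was not tested. The sequences of the 51 peaks were not analysed here. The sources used here do not say how reads that match several places were handled, so if the units are near-identical the values of single peaks in the block are uncertain.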

How the data were processed

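ATAC-seq was measured in 8 libraries, 4 of Vwf+Gata1+ and 4 of Vwf-Gata1+ MPP2 cells. The authors deposited 1 table of raw counts per peak and library. The submitters' processing notes name mm9 as the build and, with no version or role, the tools MACS2, Picard, SAMtools, Bowtie2, FastQC and Trim Galore. Not given in the sources used here are the unit counted (read or fragment), the shift of read ends to the Tn5 cut, the treatment of duplicates and the merging of peaks. Duplicates left in would make libraries of few cells look more precise than they are.

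Members were found by position, as the rule at the start of the text states, and neighbours of any width were counted. The filterByExpr function of edgeR removed peaks and regions with few counts. TMM factors came from the table of all peaks. Peaks, region sums and peak usage (diffSpliceDGE with Simes p) were tested with edgeR's robust quasi-likelihood fit of the group alone, with Benjamini-Hochberg adjustment over the whole table and a threshold of 0.05. The tests were checked on simulated data. Single library values were compared with 2-sided exact permutation tests. The software was Python 3.11.15 with matplotlib 3.10.9, and R 4.3.3 with DESeq2 1.42.0, limma 3.58.1 and edgeR 4.0.16.

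The members, the tests and the rules for naming were chosen with earlier results of these data known. The rules named the 8 clusters with the most members, up to 6 clusters and 5 member peaks per direction with the lowest p, every member past the threshold, 4 clusters with the lowest usage p with their leading peak, and the 3 highest and 3 lowest in signal per kb. Clusters named outside these rules are said to be so. Alternatives were a replicate block, RLE and total count scaling, other filters, DESeq2, limma-voom, other ways to build clusters, and each library left out in turn. The GRCm38.p6 gene table of RefSeq was used for names, types and distances between neighbouring genes only.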

Additional observations from a re-analysis of the deposited data

Results flagged for a closer look

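In groups of 4 libraries, a library was set apart when its gap to the nearest other library exceeded Dixon's critical share of the group's range. This was applied to 104 groups of values, 2 for each measure, cluster and peak named, and it set apart 6 (5.77%). Chance alone sets apart about 1 in 20 groups.

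For Vwf+Gata1+ replicate 1, the share of counts in peaks of 1500 bp or more was 20.4823%, below the other 3 libraries, at 21.0 to 21.1%. The same library was lowest in the chromosome 14 cluster that starts at 51610795, with 99.0355 CPM against 104 to 105 CPM. Vwf-Gata1+ replicate 1 was highest in the chromosome 10 cluster that starts at 82523024, with 90.5666 CPM against 71.3 to 72.9 CPM. Vwf-Gata1+ replicate 2 was lowest in the chromosome 17 cluster that starts at 34168392, with 803.534 CPM against 824 to 828 CPM. Vwf+Gata1+ replicate 3 was highest in the chromosome 1 peak that starts at 89522862, with 34.3784 CPM against 27.7 to 28.5 CPM. Vwf-Gata1+ replicate 3 was lowest in the chromosome 9 peak that starts at 58385440, with 12.4814 CPM against 16.0 to 16.3 CPM.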

How the results depend on the processing

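With the replicate number as a block, 10 clusters passed (7 higher, 3 lower; 1.18%, against 1.56% of all regions), 50 member peaks (41 higher, 9 lower; 0.486%, against 0.527% of all peaks) and 9 clusters for peak usage (1.21%, against 0.495% of regions). Same-numbered libraries of the 2 groups had correlations of deviations over members of 0.332, 0.159, 0.0519 and 0.0102, and 5 of 8 libraries correlated best with their own number. In both groups the share of counts in members had the same order, highest in replicate 1, followed by replicates 4, 3 and 2. Since the labels give no shared source and not every pair's correlation was over 0.1, the numbers were not used as a pairing. Fits of the group alone and the permutation tests count any spread shared by same-numbered libraries as spread within groups. Whether same-numbered libraries were processed together was not tested.

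Without the block, 0 clusters passed in every other fit, with the scalings, filters, tools, cluster rules and left-out libraries tried. The count of member peaks was 2 with total count scaling (27 of all peaks), 0 with limma-voom (0 of all peaks), and ran from 0 to 10 with 1 library left out; clusters passing for peak usage ran from 1 to 4. The 10 member peaks came without Vwf+Gata1+ replicate 1 (0.0959%, against 0.0758% of all peaks), as did the 4 clusters (0.536%, against 0.210% of regions). The difference in the share of counts was -0.0908 percentage points with 15 or more other peaks as the rule, -0.00846 without the evenly spaced peaks of chromosome 8 (an alternative chosen after seeing the data), and between -0.104 and 0.142 with 1 library left out. The difference in signal per kb over other peaks was between -0.00697 and 0.0231 with 1 library left out. None of these was past the threshold, and the cause was not tested. Other settings were compared for 26 clusters and peaks: those named for a low p or usage p, and the chromosome 8 cluster of evenly spaced peaks. These settings were RLE and total count scaling, the replicate block and each left-out library. Among the 286 values under them, 0 changed sign and 3 no longer passed. DESeq2, limma-voom and other filters were not among these settings. Choice by low p favours a steady sign, and the 8 clusters with the most members were not among the 26. With the block 19 newly passed, and without it 8, which were all peaks.

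Depth limits small clusters most: the median standard error of a single-member cluster was 0.26, and 20 clusters and 1807 members had too few counts to test. Counts cover 500 cells a library. Which genes the clusters hold, and the sequences of the chromosome 8 block, were beyond these values.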
